A study of Homo sapiens with 9 samples.

Results

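The S100 calcium-binding proteins are described here through 10 of their genes, S100A2, S100A3, S100A4, S100A6, S100A10, S100A11, S100A13, S100A14, S100A16 and S100P. They were chosen by gene name from the 32378 genes of the table. All 10 passed the filter on low counts and were tested among 16450 genes. RNA was sequenced from SKOV3 cells, an established line of human ovarian carcinoma, grown in RPMI medium with fetal bovine serum. There were 3 groups of 3 libraries. Control cells are labelled by that word alone, Carbo cells received carboplatin as read from the series title, and Carbo+COM33 cells received Carbo together with COM33, an agent given only by code name. The title concerns the reversal by COM33 of carboplatin-induced epithelial-mesenchymal transition and ERK signalling. Doses, treatment times and the vehicle are not stated in the labels, and COM33 alone was not analysed here. All libraries come from 1 cell line, and since nothing in the labels ties a replicate number to a separate culture, the p-values measure only the spread between these libraries, which may be technical.

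S100 proteins are small vertebrate proteins that usually act as dimers. Each subunit has a pair of EF-hand loops; calcium binding opens a hydrophobic surface that docks onto target proteins such as annexins and myosin heavy chains. Several are also released from cells and bind receptors such as RAGE, and S100A4 is widely used as a marker of mesenchymal and metastatic cells. S100A10 differs in that its loops no longer bind calcium, and it forms a stable complex with annexin A2 at the plasma membrane. Most of the family's genes lie in a cluster on the long arm of chromosome 1, the epidermal differentiation region.

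On GRCh38, 9 of the 10 genes lie on chromosome 1 and S100P lies on chromosome 4. S100A10 (ENSG00000197747) runs from 151982915 to 151994390 and S100A11 (ENSG00000163191) from 152032506 to 152047907. Further along come S100A6 (ENSG00000197956) from 153534599 to 153536244, S100A4 (ENSG00000196154) from 153543613 to 153550136, S100A3 (ENSG00000188015) from 153547329 to 153549372 and S100A2 (ENSG00000196754) from 153561108 to 153567890. The last 3 of the cluster are S100A16 (ENSG00000188643) from 153606886 to 153613145, S100A14 (ENSG00000189334) from 153614255 to 153616986 and S100A13 (ENSG00000189171) from 153618787 to 153631360. All 9 are on the minus strand, whereas S100P (ENSG00000163993), from 6693069 to 6697170, is on the plus strand. S100A3 lies within the span of S100A4 without shared exon bases. Of its 2216 exon bases, S100A13 shares 536 with AL162258.1 on the same strand and 235 with S100A1 on the opposite strand. Whether the counting used strand, and how it treated reads shared between genes, is not stated. Reads of these genes cannot be told apart there, and the level of S100A13 is uncertain. Over the 9 libraries S100A1 held only 169 counts. For AL162258.1 no counts were found, which may mean that it was not among the genes counted.

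Sequences just upstream of the transcription start are shown because several members moved together and a few did not. The 250 bases before the start are given for S100A2 and S100A6, which had the largest differences between control and Carbo among the well-expressed members. They are also given for S100A3 and S100A11, which rose on addition of COM33. S100A10 rose as well, and its sequence is not shown. The sequences shown are from RefSeq on GRCh38.p14, minus strand, read 5′ to 3′, at chr1:153565845-153566094, chr1:153535992-153536241, chr1:153549259-153549508 and chr1:152037005-152037254 in that order. Capitals mark matches on either strand to the AP-1 motif (TGANTCA), the SP1 motif (GGGCGG), the TEAD motif (CATTCC) and the TATA box (TATAAA).
S100A2: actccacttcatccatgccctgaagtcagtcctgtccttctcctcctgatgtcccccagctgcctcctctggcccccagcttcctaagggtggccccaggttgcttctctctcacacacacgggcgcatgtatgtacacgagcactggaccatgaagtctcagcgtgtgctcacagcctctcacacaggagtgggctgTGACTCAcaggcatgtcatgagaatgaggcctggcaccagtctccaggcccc
S100A6: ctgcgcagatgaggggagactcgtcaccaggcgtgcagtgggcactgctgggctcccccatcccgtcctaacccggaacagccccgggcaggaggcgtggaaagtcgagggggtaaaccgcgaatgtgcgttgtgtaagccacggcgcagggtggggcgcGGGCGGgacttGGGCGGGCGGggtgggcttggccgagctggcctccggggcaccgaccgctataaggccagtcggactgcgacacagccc
S100A3: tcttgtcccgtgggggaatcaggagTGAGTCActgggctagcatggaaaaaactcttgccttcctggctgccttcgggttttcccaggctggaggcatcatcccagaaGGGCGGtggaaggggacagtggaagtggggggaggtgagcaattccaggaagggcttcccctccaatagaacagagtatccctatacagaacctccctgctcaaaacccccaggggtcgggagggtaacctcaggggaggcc
S100A11: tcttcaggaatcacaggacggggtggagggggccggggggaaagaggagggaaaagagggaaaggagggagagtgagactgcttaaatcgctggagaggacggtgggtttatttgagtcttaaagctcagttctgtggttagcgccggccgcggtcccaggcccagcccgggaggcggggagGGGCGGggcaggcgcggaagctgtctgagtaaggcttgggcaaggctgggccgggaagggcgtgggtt
S100A2 has an AP-1 match, TGACTCA, whose first base lies at -52 from the start shown; RefSeq gives a further start for S100A2, whose window at chr1:153563888-153564137 has no match to the 4 motifs. S100A3 has TGAGTCA at -225. S100A6 has 3 SP1 matches, at -90, -79 and -75, of which the last 2 overlap, and S100A11 has 1 at -68. RefSeq gave 14 promoter windows for the 10 genes. Of all 35116 windows of this length 6.57% held the AP-1 motif, against 2 of these 14. The SP1 motif was in 42.6% of all windows and in 6 of the 14 (those of S100A3, S100A6, S100A10, S100A11, S100A13 and S100A16). A TATA box was in 10.7% of all windows and in 3 of the 14, upstream of S100A4, S100A13 and S100P. The TEAD motif was in 11.9% of all windows and in 1 of the 14, upstream of S100A16. These matches describe letters, not bound factors.

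Per exon length, the 10 genes ranged from some of the most abundant transcripts of the cell to sparsely expressed ones. Levels between genes are compared in FPKM, fragments per kilobase of exon, scaled to the library's total count. In bulk RNA, fewer expressing cells and less RNA per cell cannot be told apart. In control, S100A6 (calcyclin, a protein of proliferating cells) stood at 968 ± 289 FPKM (SD, n = 3), with only 15 of the 16450 tested genes above it. S100A11, which binds annexin A1 and acts in membrane repair, followed at 579 ± 28.9 FPKM, with 20 genes above it, and S100A16 at 229 ± 9.0 FPKM. S100A4 (117 ± 1.78 FPKM), S100A2 (116 ± 58.2 FPKM) and S100A10 (93.1 ± 11.9 FPKM) came next; the libraries of S100A2 overlapped those of both of these neighbours in the order. S100A3 stood at 31.4 ± 4.88 FPKM, 11.6-fold above the next gene. The last 3 were S100A13 (2.70 ± 0.433 FPKM), S100P (2.21 ± 1.14 FPKM) and S100A14 (1.84 ± 0.325 FPKM), whose ranges overlapped from one to the next and which lay at the 39.3, 35.2 and 31.8 percentile of tested genes.

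S100A6, S100A11 and S100A16 held the first 3 places in each group, and the order changed below them. S100A6 and S100A11 did not overlap in control but did in Carbo (546 ± 187 and 506 ± 57.0 FPKM) and in Carbo+COM33 (838 ± 279 and 783 ± 84.2 FPKM). In Carbo, S100A2 (53.3 ± 22.1 FPKM) lay below S100A10 (74.0 ± 6.67 FPKM), with overlapping libraries. With COM33, S100A2 (106 ± 48.9 FPKM), S100A10 (99.99 ± 6.53 FPKM) and S100A4 (95.4 ± 8.85 FPKM) overlapped from one to the next. S100A13, S100A14 and S100P remained the lowest 3 in each group.

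**Figure D1:**
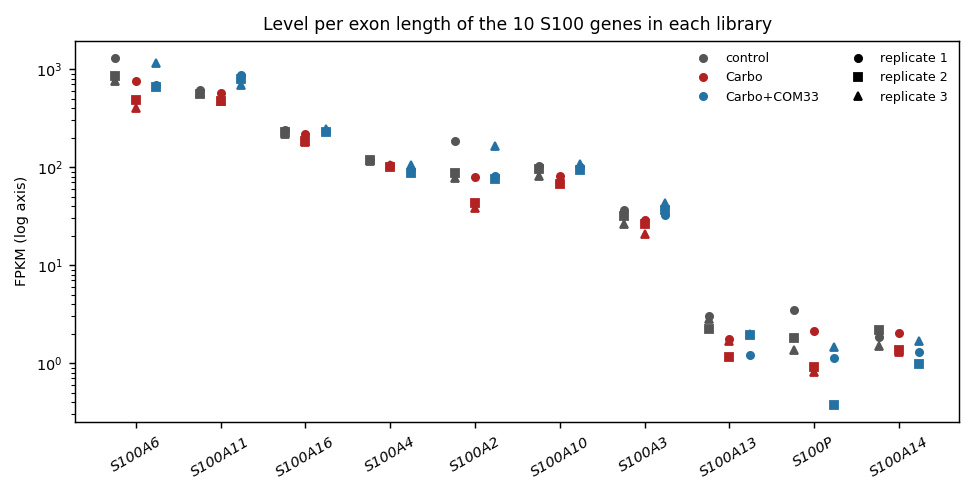
Deposited FPKM (log axis) of the 10 genes in each of the 9 libraries, ordered by the control mean, with colour for the group and symbol shape for the replicate number. S100A6 and S100A11 lie highest, and S100A13, S100P and S100A14 form a separate low band, with a gap of 11.6-fold in control below S100A3.

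Depth was even. Libraries held 13851760 to 15533668 counts. The 8 ovarian carcinoma markers were all tested and summed to 3357 to 3675 CPM (counts scaled to the TMM library size, the unit of all levels below) in control and Carbo and to 2550 to 2928 CPM in Carbo+COM33. ERBB2, which SKOV3 is known to carry at high level, stood at 2239 to 2532 CPM in control and Carbo and at 1485 to 1800 CPM in Carbo+COM33. PAX8, a transcription factor of the same list, lay at 325 to 480 CPM in control, 281 to 416 CPM in Carbo and 450 to 531 CPM in Carbo+COM33. The keratin gene KRT7 lay at 215 to 353 CPM in control, 207 to 368 CPM in Carbo and 116 to 153 CPM in Carbo+COM33. MUC16 and WT1 stayed at 1.08 to 2.80 CPM. Markers of blood and immune cells, of endothelium and of keratinocytes summed to at most 1.04, 0.466 and 0.763 CPM; fibroblast markers, with COL1A1 the only one tested, summed to 9.89 to 38.4 CPM without COM33 and 5.74 to 12.7 CPM with it, and nerve markers summed to 2.09 to 5.26 CPM. The part of this difference in marker levels in the results below was not tested.

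Within groups, the S100 genes were highest in 1 particular library. Control 1 was the highest control library for 9 of the 10 (all but S100A14), against 38.3% of tested genes. Carbo 1 was the highest Carbo library for 9 (all but S100A4), against 38.5%, and Carbo+COM33 3 the highest of its group for 9 (all but S100A11), against 38.6%. Together the 10 genes held 0.270%, 0.204% and 0.189% of counts in control 1 to 3, 0.188%, 0.141% and 0.132% in Carbo 1 to 3, and 0.207%, 0.196% and 0.259% in Carbo+COM33 1 to 3. The spread differed by gene: the highest control library exceeded the lowest 2.40-fold for S100A2, 1.73-fold for S100A6 and 2.63-fold for S100P, but 1.04-fold for S100A4 and 1.09-fold for S100A16.

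**Figure D2:**
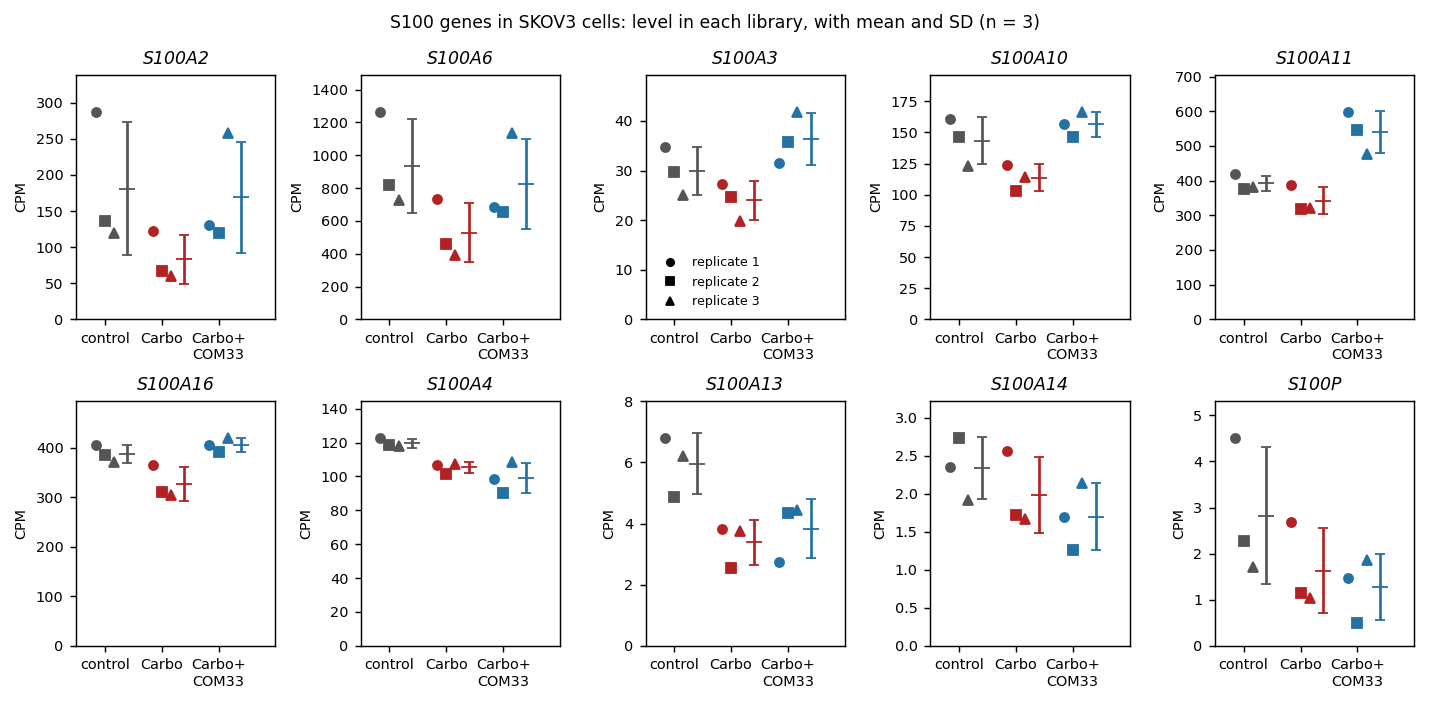
CPM of each of the 10 genes (a panel each, linear axis from 0) in control, Carbo and Carbo+COM33, with a point per library, symbol shape for the replicate number, and the mean with its SD (n = 3) beside the points. S100A2 and S100A6 show 1 high library in each group, namely control 1, Carbo 1 and Carbo+COM33 3. S100A11 shows 3 Carbo+COM33 libraries at 477 to 598 CPM, above all others.

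Carbo vs control asks what carboplatin changed. Each of the 10 genes had a lower fitted level in Carbo, and the 9 except S100A14 fell when control and Carbo libraries were paired by replicate number (11.5% of all tested genes fell and 11.2% rose in that fit). S100A2, S100A6, S100A13 and S100P had the largest log2 fold changes, between -1.09 and -0.80, and the other 6 lay between -0.33 and -0.19. Without the pairing edgeR called 0 of the 10, and 0.0% of all tested genes.

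S100A2, an S100 protein of epithelial cells, measured 287, 136 and 120 CPM in control 1 to 3 and 123, 67.0 and 59.6 CPM in Carbo 1 to 3. Every Carbo library lay below its same-numbered control, but Carbo 1 reached the level of control 3, so the groups overlapped. The log2 ratio within pairs was -1.23, -1.02 and -1.01. In the paired edgeR fit S100A2 fell, with a log2 fold change of -1.09 (SE 0.0549, adjusted p = 3.24e-09); unpaired, the log2 fold change was -1.12 (SE 0.367) with an edgeR adjusted p of 0.230.

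S100A6 showed the same layout at a higher level. It measured 1265, 817 and 730 CPM in control 1 to 3 and 732, 460 and 391 CPM in Carbo 1 to 3. Pair log2 ratios were -0.79, -0.83 and -0.90, and the paired edgeR log2 fold change was -0.84 (SE 0.0447, adjusted p = 4.03e-09), against -0.83 (SE 0.264, adjusted p = 0.228) unpaired. Carbo 1 was again at the level of control 3.

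S100A13, which takes part in the unconventional release of FGF1, was at 6.79, 4.86 and 6.23 CPM in control and 3.83, 2.55 and 3.77 CPM in Carbo. These groups did not overlap. The counts behind these values were 98, 73 and 91 in control and 57, 40 and 54 in Carbo. The gene fell in the paired edgeR fit (log2 fold change -0.82, SE 0.185, adjusted p = 0.00411) and had an adjusted p of 0.220 unpaired (-0.82, SE 0.238).

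S100P, a calcium-binding protein often raised in carcinomas, was at 4.51, 2.26 and 1.71 CPM in control and 2.69, 1.15 and 1.05 CPM in Carbo. That is 65, 34 and 25 counts against 40, 18 and 15. The groups overlapped, with each Carbo library below its own control (pair log2 ratios of -0.74, -0.98 and -0.71). The paired edgeR fit gave -0.80 (SE 0.272, adjusted p = 0.0418), near the threshold, and the unpaired fit -0.79 (SE 0.478, adjusted p = 0.409).

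Smaller decreases were seen for S100A10, S100A3, S100A16, S100A11 and S100A4. S100A10 measured 161, 146 and 123 CPM in control and 124, 103 and 114 CPM in Carbo (paired edgeR log2 fold change -0.33, SE 0.0617, adjusted p = 0.00105). S100A3 measured 34.8, 29.7 and 25.2 CPM in control and 27.4, 24.8 and 19.8 CPM in Carbo (-0.32, SE 0.0803, adjusted p = 0.00852). For both, the highest Carbo library lay above the lowest control library.

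S100A16, a member expressed in many tissues, had non-overlapping groups, 406, 385 and 372 CPM in control and 366, 311 and 305 CPM in Carbo (paired edgeR log2 fold change -0.25, SE 0.0469, adjusted p = 0.00113). S100A11 measured 418, 376 and 383 CPM in control and 387, 318 and 322 CPM in Carbo, with overlap (-0.20, SE 0.0462, adjusted p = 0.00454). S100A4, which binds non-muscle myosin and promotes cell motility, had the tightest groups, 123, 119 and 118 CPM against 107, 102 and 108 CPM (-0.19, SE 0.05, adjusted p = 0.0127). S100A14, an epithelial member, stood at 2.36, 2.73 and 1.92 CPM in control and 2.56, 1.72 and 1.67 CPM in Carbo (18 to 41 counts in any library); its pairs went in both directions (0.12, -0.67 and -0.19) and it was not called (paired edgeR log2 fold change -0.25, SE 0.277, adjusted p = 0.582).

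**Figure D3:**
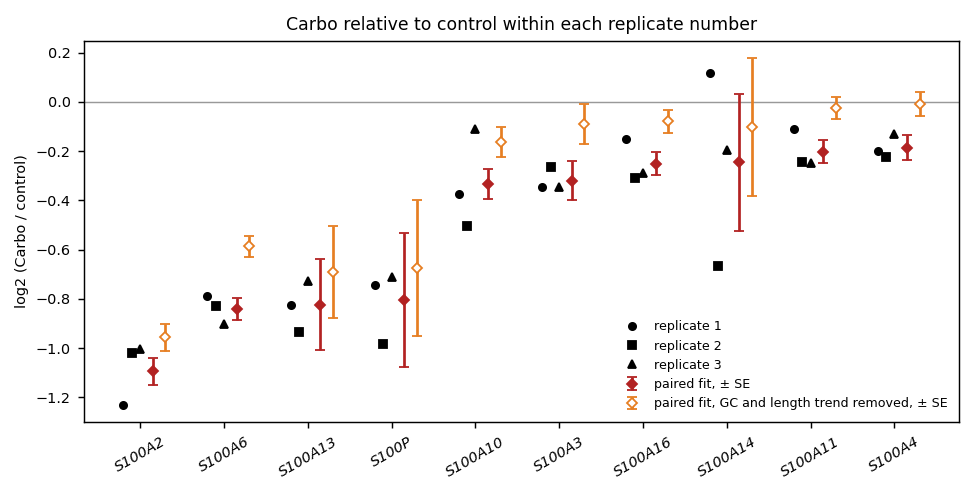
log2 of Carbo over control for each replicate number (black symbols), the paired edgeR estimate with its SE (filled diamonds), and the paired estimate with GC and length offsets (open diamonds), for the 10 genes. The 3 pairs of S100A2 lie between -1.23 and -1.01 and those of S100A6 between -0.90 and -0.79, and with the offsets 3 of the 10 estimates are called.

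Counted over the 10 chosen genes, the paired edgeR fit called 9 of 10 lower and 0 higher, with the background given above. The 2 other S100 genes tested, S100A1 and S100A5, were not called in that edgeR fit (adjusted p = 0.652 and 0.434). In 3 of 3 pairs 9 of 10 were lower in Carbo, against 26.3% of tested genes. The median log2 fold change of the 10 genes was -0.33 in both fits, against 0.0009 over all tested genes unpaired. The unpaired edgeR test called 0% of all genes; of the 10 genes, 6 had an unadjusted p under 0.05, as did 2748 genes in all. DESeq2 called 132 genes in all and 0 of the 10 (S100A14 and S100P received no adjusted p). The 3 values of Carbo lay below the 3 of control for S100A4, S100A13 and S100A16, against 11.7% of tested genes.

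The S100 genes share a composition, and its part in this comparison was not tested. All 10 have a GC content above the median of tested genes (52.8% to 60.2% against 48.3%) and all 10 have less exon length than the median (680 to 2216 bp against 4460.5 bp). When offsets took out the smooth trend of every library with GC and length, the paired edgeR fit had 3 of the 10 fall: S100A2 (log2 fold change -0.96, adjusted p = 5.75e-10), S100A6 (-0.59, adjusted p = 3.47e-08) and S100A13 (-0.69, adjusted p = 0.0210). The background of that fit was 4.97% of genes called lower and 5.42% called higher. S100A4 then stood at -0.01, S100A11 at -0.02, S100A16 at -0.08 and S100A3 at -0.09, with adjusted p of 0.320 or more, S100A10 at -0.16 (adjusted p = 0.0973) and S100P at -0.67 (adjusted p = 0.136).

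The calls changed when libraries were left out. Without pair 2, the paired edgeR fit called only S100A2, S100A6 and S100A13; without pair 1 or pair 3 it called 8 of the 10. Over all 16450 genes those fits called 891 lower without pair 2, 2167 without pair 1 and 1497 without pair 3. In the unpaired edgeR fit without Carbo 1, S100A2 (-1.51, adjusted p = 0.0278), S100A6 (-1.14, adjusted p = 0.0214), S100A10 (-0.40, adjusted p = 0.0452) and S100A16 (-0.33, adjusted p = 0.0325) fell, 4 of 10 against 2.95% of genes called lower and 3.33% called higher. Without control 1 the unpaired log2 fold change was -0.62 for S100A2, -0.55 for S100A6 and -0.29 for S100P. The replicate block fitted to all 9 libraries called 0 of the 10, with a lowest adjusted p of 0.199.

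Carbo+COM33 vs Carbo asks what COM33 added in carboplatin-treated cells. Of the 10 genes, 3 rose and 0 fell: S100A11, S100A3 and S100A10. This stands against 2.43% of tested genes called higher and 2.53% called lower. S100A2, S100A6 and S100A16 had higher means with COM33 and did not pass the test, and S100A4, S100A13, S100A14 and S100P had log2 fold changes between -0.35 and 0.19.

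S100A11 stood at 598, 545 and 477 CPM in Carbo+COM33 1 to 3 and at 387, 318 and 322 CPM in Carbo 1 to 3, so that the lowest COM33 library exceeded the highest Carbo library. Its log2 fold change was 0.66 (SE 0.103, edgeR adjusted p = 0.00468). All 9 fits that leave out a library called it, with log2 fold changes of 0.58 to 0.76 and adjusted p from 0.000231 to 0.0457.

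S100A10, the annexin A2 light chain, stood at 157, 146 and 166 CPM against 124, 103 and 114 CPM (log2 fold change 0.46, SE 0.105, edgeR adjusted p = 0.0271). S100A3, known from the hair cuticle, stood at 31.6, 35.7 and 41.8 CPM against 27.4, 24.8 and 19.8 CPM (0.60, SE 0.151, edgeR adjusted p = 0.0403). Neither had overlapping groups. With a library left out, each was called in 3 of the 9 fits (without control 1, control 3 or Carbo 1) and otherwise had an adjusted p of up to 0.155 and 0.153. Their log2 fold changes over these fits ran from 0.39 to 0.53 for S100A10 and from 0.48 to 0.71 for S100A3. Both stayed called with the GC and length trend removed (0.40 for S100A10, 0.53 for S100A3), as did S100A11 (0.59), against 3.92% of genes called higher and 3.64% called lower in that fit.

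S100A2 stood at 130, 119 and 258 CPM with COM33, against 123, 67.0 and 59.6 CPM in Carbo. Only Carbo+COM33 3 was well above the highest Carbo library. The log2 fold change was 1.02 (SE 0.367, edgeR adjusted p = 0.122), and it was 0.59 without Carbo+COM33 3. S100A6 stood at 684, 653 and 1139 CPM against 732, 460 and 391 CPM (0.65, SE 0.264, edgeR adjusted p = 0.171), and at 0.34 without Carbo+COM33 3. S100A16 did not overlap, at 406, 391 and 420 CPM against 366, 311 and 305 CPM (0.31, SE 0.0859, edgeR adjusted p = 0.0581).

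These calls changed without Carbo 1. The edgeR test then called 6 of 10 higher and 0 lower, against 7.75% and 8.79% of genes: S100A2 (1.42, adjusted p = 0.0131), S100A6 (0.96, adjusted p = 0.0127), S100A16 (0.40, adjusted p = 0.00440), S100A3 (0.71), S100A10 (0.53) and S100A11 (0.76). With all libraries, 6 of the 10 had an unadjusted p under 0.05, as did 3683 of all 16450 genes. The 3 COM33 values lay above the 3 Carbo values for S100A3, S100A10, S100A11 and S100A16, against 11.7% of tested genes. The median log2 fold change of the 10 was 0.39, against -0.006 over all tested genes.

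Of the 3 members of low abundance, none was called. S100A13 stood at 2.72, 4.33 and 4.43 CPM with COM33 (log2 fold change 0.19, edgeR adjusted p = 0.708), S100A14 at 1.69, 1.26 and 2.15 CPM (-0.22, adjusted p = 0.708) and S100P at 1.47, 0.489 and 1.87 CPM (-0.35, adjusted p = 0.746). The S100P values rest on 20, 7 and 27 counts. S100A4 stood at 98.5, 90.4 and 108 CPM (-0.09, adjusted p = 0.566).

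Carbo+COM33 vs control asks how far the treated cells lay from untreated ones. Of the 10 genes, only S100A11 was called: its mean rose from 392 ± 22.4 CPM in control to 540 ± 60.6 CPM with COM33 (SD, n = 3). The log2 fold change was 0.46 (SE 0.103, edgeR adjusted p = 0.0235). Of all tested genes 3.2% were called higher and 3.09% lower. The groups did not overlap, with 376 to 418 CPM in control and 477 to 598 CPM with COM33. This call was lost in 4 of the 9 fits with a library left out, those without control 2 (adjusted p = 0.126), control 3 (0.0956), Carbo+COM33 1 (0.132) or Carbo+COM33 2 (0.101). With the GC and length trend removed, both S100A11 (0.58, adjusted p = 0.0101) and S100A3 (0.45, adjusted p = 0.033) were called by edgeR, against 3.41% of genes called higher and 2.33% lower.

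S100A2 and S100A6 lay close to control, with wide errors. Their means were 169 ± 77.0 and 825 ± 272 CPM with COM33 against 181 ± 92.4 and 937 ± 287 CPM in control (log2 fold changes -0.10, SE 0.360, edgeR adjusted p = 0.899, and -0.18, SE 0.262, adjusted p = 0.717). An error of that size cannot show that they were equal. Leaving out control 1 turned both values, to 0.41 and 0.10.

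S100A4 was lower in all 3 COM33 libraries than in all 3 controls (90.4 to 108 against 118 to 123 CPM; log2 fold change -0.27, SE 0.0815) without passing the test (edgeR adjusted p = 0.0663); it was called without Carbo 1 (0.0463) and without Carbo+COM33 3 (0.0168). S100A13 also did not overlap (2.72 to 4.43 against 4.86 to 6.79 CPM; -0.63, adjusted p = 0.123). Values below all 3 controls were found for 14.4% of tested genes and values above for 14.3%. S100P had the largest log2 fold change of the 10 genes here, -1.14 (SE 0.498, edgeR adjusted p = 0.184). S100A3 (0.28), S100A10 (0.13), S100A16 (0.07) and S100A14 (-0.46) had adjusted p of 0.271 or more. At an unadjusted p under 0.05 there were 4 of the 10 genes and 3953 of all 16450, and the median log2 fold change was -0.14, against -0.014 over all genes. This comparison shares its libraries with the other 2, so the 3 sets of values are not independent.

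S100A2 and S100A6, 2 genes of the same cluster, followed each other from library to library. S100A6 over S100A2 in CPM was 4.40, 6.01 and 6.10 in control 1 to 3, 5.97, 6.87 and 6.55 in Carbo, and 5.25, 5.48 and 4.42 in Carbo+COM33. The ratio was lowest in control 1 and Carbo+COM33 3, where both genes were highest. Of all tested genes, those most like S100A2 over the 9 libraries by Pearson's r of log2 CPM were ANAPC11, a subunit of the anaphase-promoting complex on chromosome 17 (0.989), PRDX5, a peroxiredoxin on chromosome 11 (0.989), and S100A6 (0.989). For S100P they were F11R, a junctional adhesion molecule (0.967), ICMT, a methyltransferase of prenylated proteins (0.961), and MRPL38, a mitochondrial ribosomal protein (0.953). These are descriptions over 9 libraries that share their groups and replicate pattern. F11R shares 1853 exon bases with AL591806.3, and MRPL38 shares 1373 with AC087289.3. ICMT and ANAPC11 also share exon bases with other genes, so the levels of all of these genes are uncertain.

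**Figure D4:**
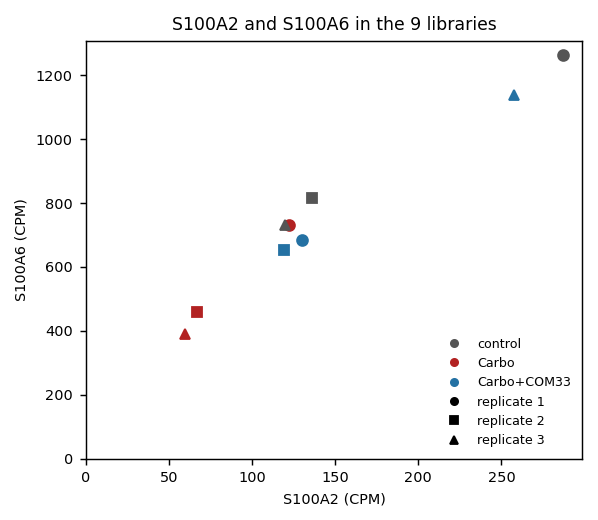
CPM of S100A6 against CPM of S100A2 in the 9 libraries, with colour for the group and symbol shape for the replicate number. Control 1 and Carbo+COM33 3 lie apart at the upper right (287 and 258 CPM of S100A2), Carbo 2 and 3 at the lower left (67.0 and 59.6 CPM).

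The rest of the family was little expressed. Of 18 other S100 and fused-type S100 genes listed, 10 were in the table and 2 were tested, S100A1 and S100A5, and neither was called in any comparison or in the paired fit. S100A5 lies between S100A6 and S100A4 and stood at 4.16, 5.93 and 5.68 CPM in control, 4.78, 4.65 and 3.97 CPM in Carbo and 6.11, 6.64 and 6.23 CPM with COM33. The COM33 libraries lay above all Carbo libraries (log2 fold change 0.50, edgeR adjusted p = 0.124). S100A1 stayed between 0.908 and 1.94 CPM. Over all 9 libraries S100A7 had 8 counts, S100Z 7, S100A8 1 and S100G 1; of the fused-type genes of the skin barrier, trichohyalin (TCHH) had 52, hornerin (HRNR) 10, filaggrin (FLG) 9 and FLG2 2.

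The genes around the cluster were read out in the same way. The 14 other tested genes that start within 250 kb of one of the 9 chromosome 1 members, S100A1 and S100A5 among them, had median log2 fold changes of -0.10 in Carbo vs control, 0.06 in Carbo+COM33 vs Carbo and -0.06 in Carbo+COM33 vs control. Of these 14, the edgeR test called 0 in each comparison (lowest adjusted p = 0.279, 0.124, that of S100A5, and 0.0776; 1, 2 and 3 at an unadjusted p under 0.05). In the paired fit of Carbo vs control, ILF2, an RNA-binding protein, rose (0.17, adjusted p = 0.0423), and SLC27A3, an acyl-CoA synthetase (-0.51, adjusted p = 0.0362), and CHTOP, a chromatin and mRNA export factor (-0.20, adjusted p = 0.0116), fell, so that 1 of 14 rose against 11.2% of genes and 2 of 14 fell against 11.5%. SLC27A3 shares 455 exon bases with INTS3, and its value is uncertain. CHTOP shares 228 with AL162258.1 and 259 with AL162258.2, and ILF2 shares 43 with SNAPIN, so the same limit holds for them.

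**Figure D5:**
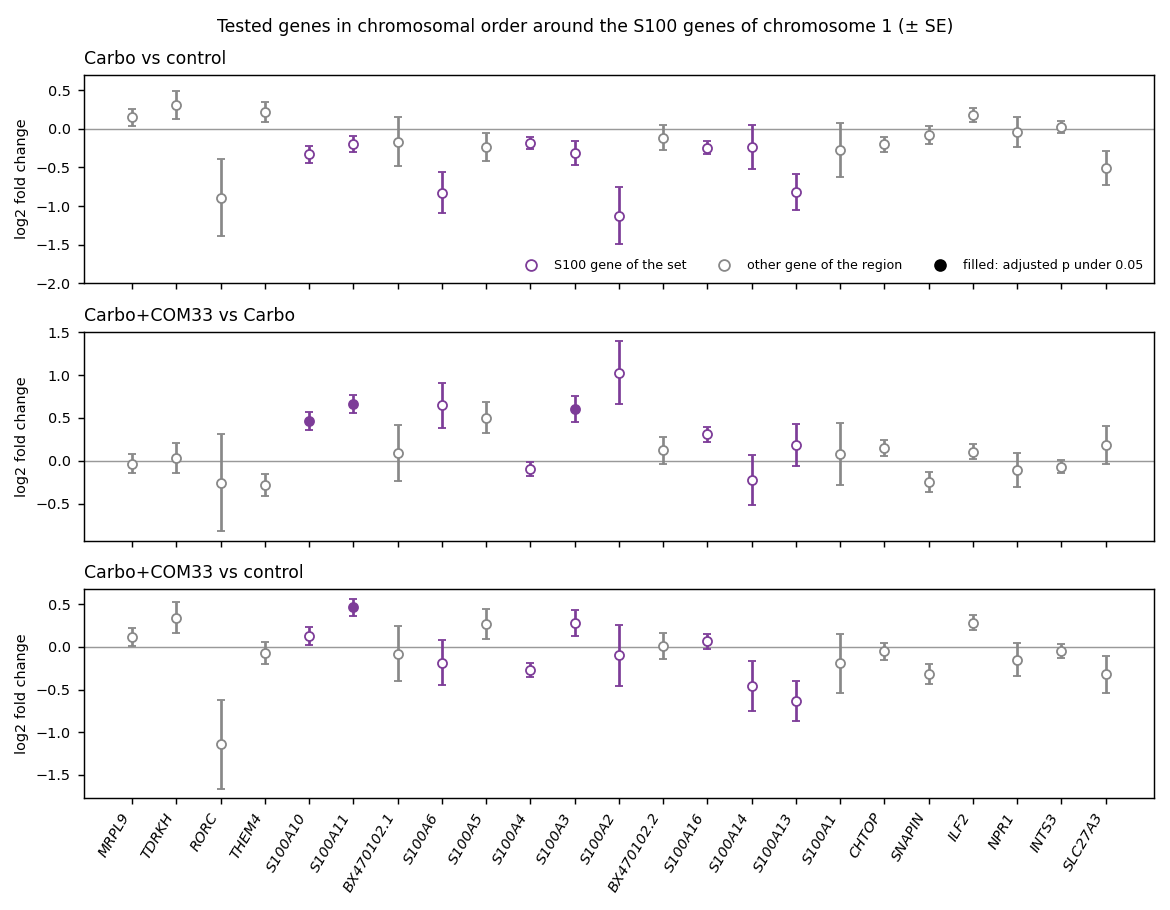
log2 fold change with its SE (unpaired edgeR fit) of the 9 members on chromosome 1 and the 14 other tested genes around them, S100A1 and S100A5 included, in chromosomal order, in a panel for each comparison, with filled points for an adjusted p under 0.05. The filled points are S100A10, S100A11 and S100A3 in Carbo+COM33 vs Carbo and S100A11 in Carbo+COM33 vs control.

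Binding partners and receptors of S100 proteins were measured from a list of 27 genes, of which 25 were tested. In Carbo vs control 0 were called unpaired (4 at an unadjusted p under 0.05, as were 2748 of all 16450 genes). In the paired edgeR fit 1 rose and 6 fell, against 11.2% and 11.5% of all tested genes, with a list median of 0.03. Among those that fell were AGER, which encodes the receptor RAGE (-0.47, adjusted p = 0.0413), DYSF, dysferlin, a membrane repair protein that binds the S100A10-annexin A2 complex (-0.45, adjusted p = 0.0246), and STUB1, a ubiquitin ligase that S100 proteins bind (-0.28, adjusted p = 0.0152).

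With COM33 added to Carbo, 3 of the 25 partners rose and 0 fell, against 2.43% and 2.53% of all tested genes. DYSF measured 30.3, 36.0 and 36.2 CPM with COM33 against 14.2, 7.83 and 6.69 CPM in Carbo (log2 fold change 1.83, SE 0.226, edgeR adjusted p = 0.00187). ANXA5 (annexin A5) measured 499, 476 and 437 CPM against 301, 309 and 324 CPM (0.60, SE 0.0779, adjusted p = 0.00221), and IQGAP1, a scaffold that binds S100P, changed by 0.33 (adjusted p = 0.0496). Annexin A2, the partner of S100A10, had a log2 fold change of 0.24 (adjusted p = 0.0897) and AHNAK, the giant scaffold of that complex, 0.50 (adjusted p = 0.0594); neither was called.

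Against control, 4 of the 25 partners rose and 2 fell with COM33, against 3.2% and 3.09% of all tested genes. DYSF (1.42, edgeR adjusted p = 0.00444) and ANXA5 (0.65, adjusted p = 0.00174) rose, and AGER (-0.75, adjusted p = 0.0256) fell. AGER measured 8.67, 12.2 and 10.5 CPM in control, 8.41, 6.49 and 7.81 CPM in Carbo and 6.77, 5.59 and 6.30 CPM with COM33. The list median was -0.02, against -0.014 over all tested genes. Of the other receptor genes of extracellular S100 proteins on the list, TLR4 had 1 count over the 9 libraries, and BSG (basigin) stood at 716 to 805 CPM in control, 699.9 to 707 CPM in Carbo and 668 to 765 CPM with COM33 and was not called.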

How the data were processed

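The authors deposited whole-number read counts per gene and FPKM values for 9 libraries. The GRCh38 build, HISAT2, HTSeq 0.11.2 and DESeq2 1.26.0 are named per the submitters' processing notes; the settings, strand included, are not given in the sources used here. All 32378 identifiers matched GENCODE 29, and the lengths behind the deposited FPKM equal the union of exons within 0.5 bp for 32283 genes. The 10 genes, the lists and the rules were chosen with earlier results of these data known. Counts were filtered with filterByExpr, scaled by TMM and tested with the quasi-likelihood test of edgeR 4.0.16 (R 4.3.3) over all 9 libraries, with group means as coefficients, 6 residual degrees of freedom and a common dispersion of 0.0133. An adjusted p is Benjamini-Hochberg over 16450 genes, and a gene is called under 0.05. The SE is the log2 fold change divided by the square root of F. The code was tested on simulated data.

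The pairing comes from the replicate numbers in the titles. The control and Carbo libraries of a number deviated together from the means of their groups, with correlations of 0.824, 0.565 and 0.748 over 6607 genes, so the replicate block in these 6 libraries (2 residual degrees of freedom) is given beside the unpaired values. DESeq2 1.42.0 and limma 3.58.1 on log2(FPKM + 1), other filters and size factors, GC and length offsets (splines) and libraries left out were alternatives. The fits of the pairs with a replicate number left out were chosen after seeing the data. All 10 genes are named; those called in any comparison or its paired fit, or past 0.5 in log2 fold change, are given in every library. Tested family members and at most 4 called partners or neighbours per comparison are named (1 partner gene is not reported here), as are the 3 genes most like S100A2 and S100P. Protein sequences were not used here.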

Additional observations from a re-analysis of the deposited data

How the results depend on the processing

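In Carbo vs control, the number of the 10 genes called (0) became 4 with no filter on low counts, 9 with the replicate block, 3 with the block and the GC and length offsets, and 3 to 8 with the block and a replicate number left out, each with 1 residual degree of freedom; with single libraries left out it ran from 0 to 4. In Carbo+COM33 vs Carbo, the count (3) became 6 with no filter (1876 of all 32378 genes called). It was 1 with limma on FPKM (447 of all 16450 genes), and ran from 1 to 6 with libraries left out. S100A16 was called there with DESeq2 (adjusted p = 0.0177) and with the replicate block over 9 libraries (adjusted p = 0.0272), each with 4 of the 10 called. Over all 16450 genes these fits called 1356 and 1554, against 816 in the unpaired edgeR fit. In Carbo+COM33 vs control, the count (1) became 2 with no filter (1934 of all 32378 genes called). It was 2 with the GC and length offsets (944 of all 16450 genes) and 2 with the replicate block over 9 libraries (1625). The block and the offsets together gave 3 (1726 genes) and limma on FPKM gave 0 (656 genes). With libraries left out the count ran from 0 to 2. The cause of these shifts was not tested. With libraries left out, 4 values took both signs: in Carbo+COM33 vs Carbo S100P ran from -0.74 to 0.22 and S100A14 from -0.43 to 0.0028, and in Carbo+COM33 vs control S100A2 ran from -0.54 to 0.41 and S100A6 from -0.49 to 0.10. For the Carbo+COM33 comparisons, libraries of the same number did not deviate together from their group means. What a replicate number marks is not stated in the labels. Correlations of same-numbered deviations were -0.015, 0.138 and -0.388 with Carbo, and 0.085, 0.101 and -0.420 with control. The replicate block in the 6 libraries called 2 and 1 of the 10 genes, and 502 and 1129 of all 16450 genes. Over all genes, the calls ran from 120 to 2721 over the alternatives in Carbo+COM33 vs Carbo (816 as counted; 1356 by DESeq2), from 114 to 2208 in Carbo+COM33 vs control (1035 as counted; 1563 by DESeq2), and from 0 to 4338 in Carbo vs control (0 as counted; 928 with no filter). All 30 FPKM levels stayed within 1 SD under TMM scaling. The counts of S100P (7 to 65 per library) and S100A14 (18 to 41) were the lowest of the 10 genes.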
